A study of Homo sapiens with 6 samples.

Results

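Chromosome arm 8p is the short arm of human chromosome 8. Its genes were taken as those with a row of exactly 1 gene symbol in the array annotation and a start on chromosome 8 below 45 Mb in RefSeq annotation of assembly GRCh38.p14. This gave 188 of the 14232 genes tested. A further 7 genes of the arm, among them those of the TRAIL receptors, were left out by name and are not analysed here. The 188 genes were set beside 329 genes of the long arm, 8q, and 13685 genes of other chromosomes. The measured genes nearest the boundary were FNTA (log2 fold change 1.26), POMK (0.92) and HGSNAT (0.29) on the 8p side, and CEBPD (0.25), PRKDC (0.48) and MCM4 (0.66) on the 8q side.

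RNA came from Ishikawa H cells, an endometrial cancer line from a grade 1 endometrioid adenocarcinoma that in both groups carried the p53 mutation G186T, as the labels write it. MTDH knockdown cells were transfected with a short hairpin RNA (shRNA) construct against MTDH, which encodes metadherin, a protein tied to chemoresistance, and the reference cells were labelled MTDH control. Each group had 3 arrays. The labels give that puromycin-resistant cells were expanded as single clones but do not say how many clones each group holds, so a difference between clones and an effect of the knockdown cannot be told apart. The p-values therefore measure only the spread between these 6 samples. The comparison asked which genes of 8p differed in expression once MTDH was depleted.

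Each array gave 1 log2 expression value per gene, and the array medians lay between 4.59 and 4.86. MTDH itself, a gene of 8q, had 5.77, 5.89 and 5.84 in the knockdown arrays and 6.89, 7.04 and 6.63 in the control arrays, which is 2.02-fold lower in knockdown (log2 fold change -1.02, limma adjusted p = 0.029). The epithelial markers KRT8, EPCAM and CDH1 averaged 8.37, 7.44 and 6.56 over the 6 arrays, whereas ELF3 averaged 3.63, and none of the measured markers of blood, endothelium, fibroblasts or nerve cells averaged above 6. None of the markers passed the test, and of the epithelial ones KRT19 differed most, with a log2 fold change of -0.87 (adjusted p = 0.0843). Control replicate 3 stood apart from the other arrays, with correlations across genes of 0.900 to 0.955, against at least 0.959 in every other pair. The values also held a step in row order, located on the difference of control replicates 3 and 2, with 5965 genes before it and 8267 after it. It lay among the rows of chromosome 8, so that 103 of the 8p genes stood before it and 85 after it.

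The arm is often lost in carcinomas and carries several proposed tumour suppressor genes, such as TUSC3 and DLC1, while its stretch nearest the centromere is a known site of amplification in breast cancer. It holds genes of very different kinds. Some belong to the basic machinery of every cell, such as DNA repair, RNA decay, protein prenylation and the lysosome, and others, such as the defensins and the nicotinic receptor subunits, are used in few tissues.

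Higher values prevailed among the brighter measured genes of 8p. Of the 188 genes, 13 rose in MTDH knockdown cells at an adjusted p under 0.05 and none fell, where 0.372% of all genes tested rose and 0.225% fell. Counting genes at an unadjusted p under 0.05, 73 of the 188 were higher and 4 lower. By the same count 1176 of all 14232 genes tested were higher and 830 lower, and of 329 genes on 8q, 113 and 12. The 13 were WRN, ZDHHC2, POLB, PPP2R2A, FNTA, UBXN8, TUSC3, DCTN6, PDGFRL, PPP2CB, AP3M2, CCDC25 and SLC7A2, with log2 fold changes from 0.85 to 1.496, and 11 of them rose at least 2-fold. In 72 genes of the arm, 38.3%, every knockdown array lay above every control array, against 8.81% of all genes. On 8q the share was much the same, 37.7% or 124 of 329 genes, with 11 genes that rose and 3 that fell. In 11 genes of 8p, 5.85%, every knockdown array lay below every control array, against 11.2% of all genes. The calls leaned on single arrays: the number of 8p genes that rose was 0 without control replicate 1, knockdown replicate 2 or knockdown replicate 3, 1 without knockdown replicate 1, 6 without control replicate 3 and 32 without control replicate 2. Each of the 13 lost its call in at least 3 of these 6 fits, while its log2 fold change stayed at 0.78 or more.

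**Figure D1:**
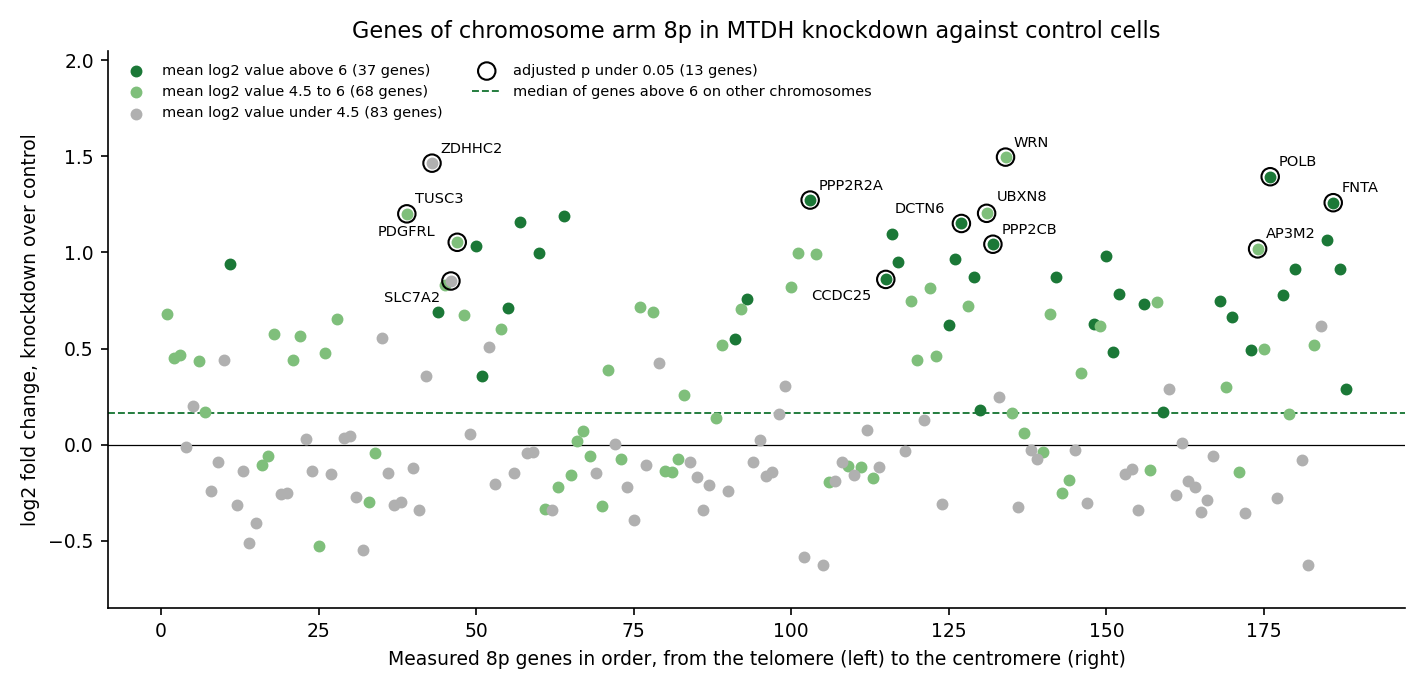
Log2 fold change of MTDH knockdown over control (y axis) of the 188 measured 8p genes in their order along the arm (x axis), coloured by the gene's mean log2 value over the 6 arrays, with the 13 genes at an adjusted p under 0.05 circled. The 37 genes above 6 all lie above 0 as deposited (GSR, ADAM9 and HGSNAT change sign under some alternatives), while most of the 83 genes under 4.5 lie below 0, and the dashed line marks the median of 0.16 of genes above 6 on other chromosomes.

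The size of the difference went with how bright a gene was. The 37 genes of 8p with a mean log2 value above 6 had positive log2 fold changes, from 0.17 in ADAM9, a membrane protease, to 1.39 in POLB, with a median of 0.87 or 1.83-fold. Of these 37, GSR had a negative value after quantile normalization and after cyclic loess, ADAM9 after cyclic loess and after normalization within the parts before and after the step, and HGSNAT after that same normalization and without control replicate 3. In 33 of the 37, or 89.2%, every knockdown array lay above every control array, where 80.7% of the 83 genes as bright on 8q and 18.6% of all genes above 6 did, and 6 of the 37 passed the test. Genes as bright on 8q had a median of 0.65 and those on other chromosomes one of 0.16. The mean over 6 arrays includes the knockdown arrays, so a gene could enter the class through its knockdown values, and 11 of the 37, POLB and FNTA among them, had a control mean under 6. With the classes set by the control mean instead, a choice made after seeing the data, 26 genes of 8p lay above 6. Their median was 0.78, against 0.64 in 58 genes of 8q and 0.12 on other chromosomes, the groups did not overlap, knockdown higher, in 22 of them, or 84.6%, against 81.0% on 8q and 15.1% of all genes above 6, and 3 passed. The difference between the arms was not tested.

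By the mean over all arrays, the 68 genes of 8p between 4.5 and 6 had a median of 0.41, against 0.17 on 8q and -0.11 on other chromosomes. The 83 genes under 4.5 had a median of -0.15, against -0.09 on 8q and -0.13 on other chromosomes. Over all 188 genes the median log2 fold change was therefore only 0.07, with 104 positive and 84 negative values, and the median over all genes tested was -0.08. Across the 188 genes, which share the same 6 arrays, the mean level and the log2 fold change correlated with a Pearson r of 0.655 and a Spearman rho of 0.688, against 0.549 and 0.589 on 8q and 0.293 and 0.289 on other chromosomes. With the control mean in its place they were 0.542 and 0.583 on 8p. These coefficients are descriptions across genes, which are not independent replicates.

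**Figure D2:**
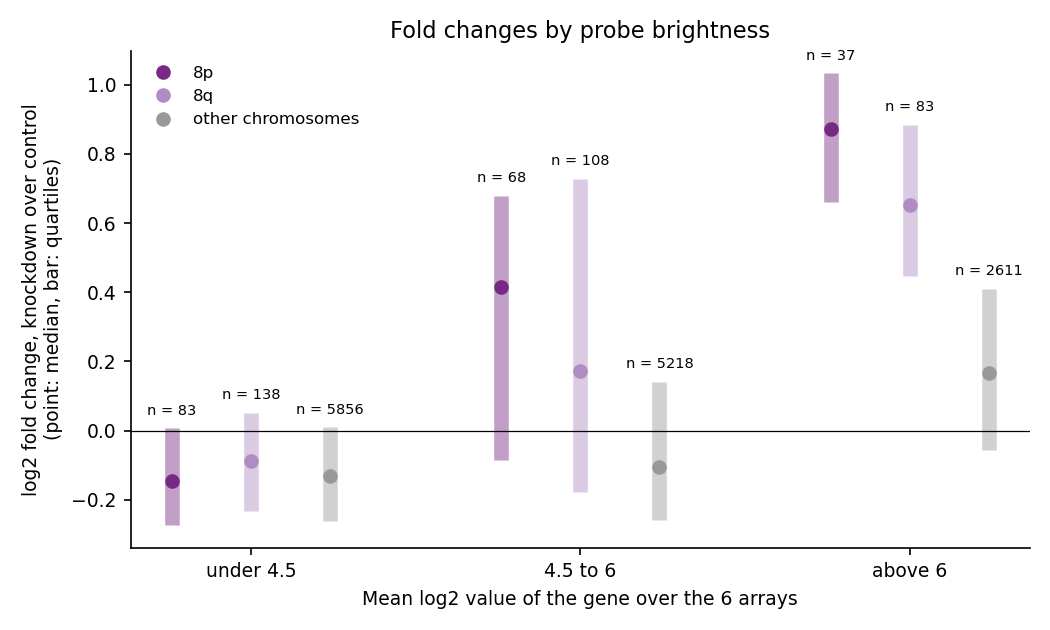
Median (point) and quartiles (bar) of the log2 fold change of MTDH knockdown over control for genes of 8p, 8q and other chromosomes, in 3 classes of mean log2 value over the 6 arrays. Above 6 the medians are 0.87 for 8p, 0.65 for 8q and 0.16 for other chromosomes, and under 4.5 all 3 lie between -0.15 and -0.09.

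Each knockdown array showed the difference on its own. Among genes above 6, the median difference of 8p from the mean of the controls was 0.81 in knockdown replicate 1, 1.01 in replicate 2 and 0.74 in replicate 3, where other chromosomes gave 0.15, 0.26 and 0.11. On the deposited scale all 37 genes, a class set with the knockdown arrays included, lay above their control mean in every knockdown array. Against the mean of the other 2 controls, the median of 8p was 0.09 in control replicate 1, 0.51 in replicate 2 and -0.39 in replicate 3, where other chromosomes gave 0.12, 0.23 and -0.35. Among bright genes of 8p, control replicate 2 was thus the highest and replicate 3 the lowest of the controls. Control replicate 2 lay above the mean of the other 2 controls in 32 of the 37 genes, replicate 1 in 26 and replicate 3 in 3. Without control replicate 3 the median of the 37 genes was 0.67, in place of 0.87, and 78 of the 188 genes were higher without overlap, where 12.1% of all genes then were.

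The step in row order bore on the 8p values, and the difference from other chromosomes was present on both sides of it. Before the step, the 23 genes of 8p above 6 had a median log2 fold change of 0.95, against 0.85 on 8q and 0.39 on other chromosomes. After it, the 14 genes of 8p had a median of 0.66, against 0.54 on 8q and 0.01 on other chromosomes. Between 4.5 and 6 the order of the arms changed with the side: before the step the medians were 0.50 in 43 genes of 8p and 0.68 in 31 of 8q, and after it 0.16 in 25 genes of 8p and -0.02 in 77 of 8q. Of the 13 genes that rose, 11 stood before the step and only CCDC25 and PPP2CB after it. With each side of the step quantile-normalized separately, an alternative added after seeing the data, 9 of the 13 still passed, the median of the 37 genes above 6 was 0.60, and that of other chromosomes was 0.01. The 4 that no longer passed were PDGFRL (adjusted p = 0.138), DCTN6 (0.0759), UBXN8 (0.0766) and AP3M2 (0.0749). Leaving out control replicate 3 as well, the median of the 37 was 0.53.

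**Figure D3:**
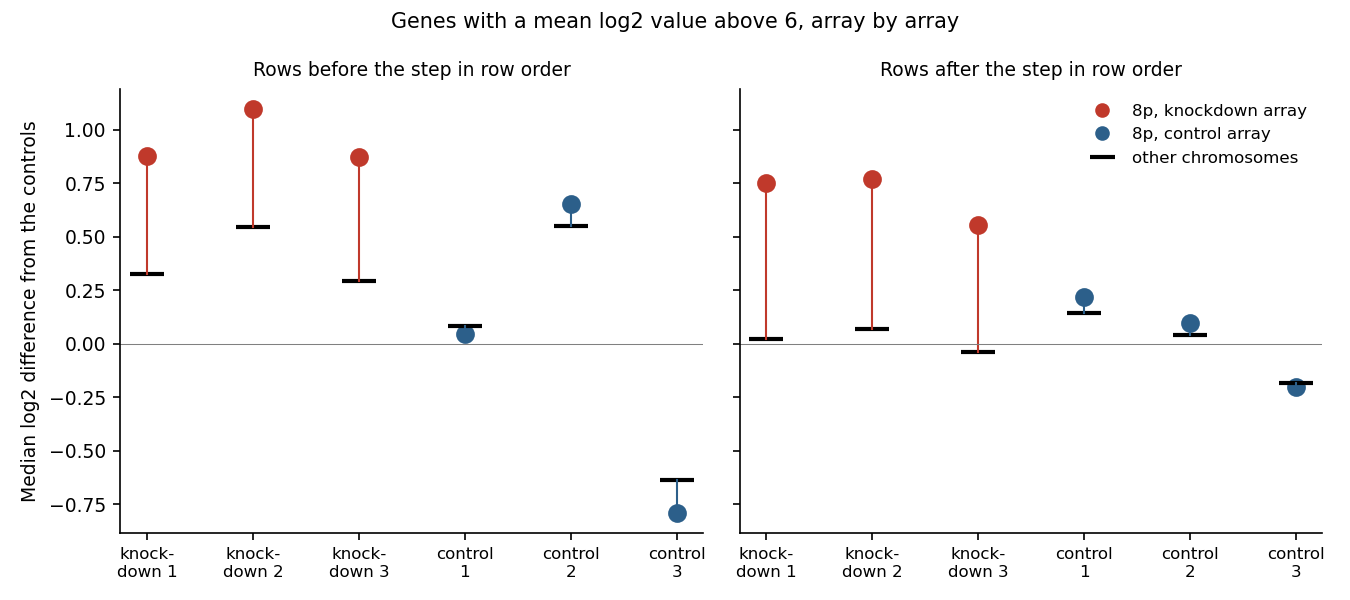
Median log2 difference of genes with a mean log2 value above 6 from the controls (y axis) in each of the 3 knockdown and 3 control arrays (x axis), for 8p (points) and other chromosomes (black bars), before and after the step in row order. A knockdown array was set against the mean of the 3 controls and a control array against the mean of the other 2, and 8p lies 0.55 to 0.73 above other chromosomes in the knockdown arrays and -0.15 to 0.11 from them in the control arrays.

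Genome maintenance genes had positive log2 fold changes throughout, from 0.26 to 1.496 in the 8 measured genes and with a median of 0.53. WRN and POLB rose, and the groups did not overlap, with knockdown higher, in 6 of the 8. On the arm 13 of 188 genes rose, and of all genes tested 0.372%. There was no overlap in this direction in 38.3% of the arm, 37.7% of 8q and 8.81% of all genes. Whether the list differed from the rest of the arm was not tested. WRN, the RecQ helicase that is mutated in Werner syndrome, had 6.54, 6.81 and 6.49 in the knockdown arrays and 5.13, 5.55 and 4.67 in the control arrays. Every knockdown array stood almost a log2 unit or more above the highest control, and the difference of 1.496 ± 0.22 (log2 fold change ± SE, n = 3 per group, limma adjusted p = 0.0178) was the largest on the arm. POLB, the polymerase that fills the gap in base excision repair, had 6.91, 7.27 and 6.78 in knockdown and 5.43, 5.98 and 5.38 in control arrays, a log2 fold change of 1.39 ± 0.21 (adjusted p = 0.0178). Control replicate 2 was the highest control in both genes. A row shared by PURG and WRN, not tested by name, was dim and had a log2 fold change of -0.16. Of the other 6, none passed: HMBOX1, which binds telomere repeats, had a log2 fold change of 0.82, the histone mRNA exonuclease gene ERI1 0.58, the telomerase inhibitor gene PINX1 0.47, the tankyrase gene TNKS 0.44, the replication helicase subunit gene GINS4 0.30 and CCAR2, an inhibitor of the deacetylase SIRT1, 0.26. PINX1 did not overlap either, with 5.67, 5.71 and 5.65 in the knockdown arrays and 5.25, 5.25 and 5.11 in the control arrays.

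Protein modification and turnover held the most genes that rose, 4 of 19 measured, where the shorter genome maintenance list held 2 of 8. On the arm 13 of 188 genes rose, and of all genes tested 0.372%. The groups did not overlap, with knockdown higher, in 12 of the 19, or 63.2%, against 38.3% of the arm and 8.81% of all genes. The median log2 fold change was 0.62. ZDHHC2, which attaches palmitate to membrane proteins, had 4.73, 5.51 and 5.44 in knockdown and 3.81, 3.86 and 3.62 in control arrays (log2 fold change 1.46 ± 0.22, adjusted p = 0.0178). Its mean over the 6 arrays was in the class under 4.5. FNTA encodes the subunit that the enzymes of protein farnesylation and geranylgeranylation share, and had 6.66, 7.03 and 6.38 in knockdown and 5.38, 5.66 and 5.25 in control arrays (1.26 ± 0.20, adjusted p = 0.0248). UBXN8, an endoplasmic reticulum protein that tethers the segregase VCP, had 6.25, 6.53 and 6.20 in knockdown and 5.32, 5.38 and 4.67 in control arrays (1.20 ± 0.21, adjusted p = 0.0406). In all 3 genes the lowest knockdown array lay clear of the highest control.

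TUSC3, a subunit of the oligosaccharyltransferase that N-glycosylates proteins and a proposed tumour suppressor, had nearly the same value in all 3 knockdown arrays. It had 6.41, 6.42 and 6.36 in knockdown and 5.19, 5.41 and 4.99 in control arrays, a 2.30-fold rise (1.20 ± 0.17, adjusted p = 0.0125, the smallest on the arm). The next members of the list did not pass: POMK, a kinase of the sugar chain of dystroglycan, had a log2 fold change of 0.92, KCTD9, an adaptor of cullin-3 ligases, 0.82, ERLIN2 of endoplasmic reticulum degradation 0.68, FBXO25 of an SCF ubiquitin ligase 0.68 and the ubiquitin ligase genes RNF170 and LONRF1 0.62 and 0.55. Among the 7 members with negative values were the ubiquitin ligase gene RNF122 (-0.32) and BMP1, which processes procollagen (-0.22).

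Of the kinases, phosphatases and adaptors, 13 measured genes, the PP2A subunit genes PPP2R2A and PPP2CB rose. PPP2R2A, the B55 regulatory subunit that directs PP2A to its targets at mitotic exit, had 8.30, 8.56 and 8.04 in knockdown and 6.97, 7.51 and 6.60 in control arrays (log2 fold change 1.27 ± 0.24, adjusted p = 0.0474). PPP2CB, one of the catalytic subunits of PP2A, had 7.22, 7.73 and 7.39 in knockdown and 6.60, 6.23 and 6.37 in control arrays (1.04 ± 0.19, adjusted p = 0.0426). PPP2CB has a near-identical paralog on another chromosome, with which probes may be shared, so its value is uncertain. The other 11 did not pass, and the list as a whole had a median of -0.06 with 6 of 13 positive. SH2D4A, an SH2 domain adaptor, had 0.71, IKBKB, the kinase that releases NF-kB, 0.50 and the calcineurin gene PPP3CC 0.43, while DUSP4, a phosphatase of MAP kinases, had -0.31 and the B cell kinase gene BLK -0.27.

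Vesicle and lysosome genes had positive log2 fold changes in 12 of 13 measured members, with a median log2 fold change of 0.62. There was no overlap, knockdown above control, in 8, or 61.5%, against 38.3% of the arm and 8.81% of all genes. AP3M2, a subunit of the AP-3 adaptor that sorts cargo to lysosome-related organelles, was the 1 that rose. It had 5.82, 5.90 and 6.03 in knockdown and 5.10, 4.98 and 4.61 in control arrays (1.02 ± 0.18, adjusted p = 0.0378). Without passing, ATP6V1B2 of the proton pump that acidifies lysosomes had 1.00, LEPROTL1 of endosomal sorting 0.97, VPS37A of the ESCRT-I complex 0.83, the Golgi gene GOLGA7 0.75, TM2D2 0.74 and SARAF, a brake on store-operated calcium entry, 0.62. TM2D2 had the tightest arrays of these, with 6.09, 6.11 and 6.04 in knockdown and 5.44, 5.32 and 5.26 in control, and missed the threshold (adjusted p = 0.0719). The lysosomal enzyme genes ASAH1 and HGSNAT had smaller values, 0.36 and 0.29, and HGSNAT turned negative without control replicate 3. The member below 0 was RAB11FIP1 of recycling endosomes, at -0.19, which came to 0.01 with each side of the step normalized separately.

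Of the 22 measured genes of mitosis, centrosome and cytoskeleton, DCTN6 rose. It encodes a subunit of dynactin, the partner of the dynein motor, and had 8.41, 8.66 and 8.50 in knockdown and 7.15, 7.78 and 7.19 in control arrays (1.15 ± 0.20, adjusted p = 0.0367). The genes of dividing cells next to it in size were PBK, a mitotic kinase, the dynein adaptor gene HOOK3, the centriolar satellite gene PCM1 and CDCA2, which brings protein phosphatase 1 to chromatin. Their log2 fold changes were 1.10, 1.06, 1.03 and 1.00, with no overlap in any. The list as a whole had a median of 0.15, with 13 positive and 9 negative values. Every knockdown array lay above every control array in 9 of the 22, or 40.9%, against 38.3% of the arm and 8.81% of all genes. PBK came closest to the threshold, with 7.80, 7.83 and 7.14 in knockdown and 6.64, 6.58 and 6.26 in control arrays (adjusted p = 0.0577). Members with negative values included the neurofilament gene NEFM at -0.17, DPYSL2 of growing axons at -0.20 and DLC1, a RhoGAP, at -0.32.

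Mitochondrial and redox genes did not pass the test in any of 17, with 8 higher and 0 lower at an unadjusted p under 0.05. On the arm 73 of 188 genes were higher and 4 lower by that count, and of all 14232 genes 1176 and 830. In 8 of the 17, or 47.1%, every knockdown array was above every control array. In 3, or 17.6%, every knockdown array was below every control array, where the shares over all genes were 8.81% and 11.2%. BNIP3L, a receptor for mitophagy, missed it narrowly, with 6.26, 6.27 and 6.47 in knockdown and 5.29, 5.69 and 5.04 in control arrays (log2 fold change 0.99, adjusted p = 0.0577). PLPBP, a pyridoxal phosphate-binding protein, had 0.87, the outer membrane channel gene VDAC3 0.78, the iron carrier gene SLC25A37 0.71, the methionine sulfoxide reductase gene MSRA 0.56 and the acetyltransferase gene NAT1 0.51. The 3 below the controls in every knockdown array were dim, PHYHIP at -0.39 and the tryptophan dioxygenase genes IDO2 and IDO1 at -0.22 and -0.19.

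Of 17 measured transcription and chromatin genes, 8 had positive and 9 negative values and none passed. The highest were 1.16 in INTS10 of the Integrator complex, 0.95 in the Elongator acetyltransferase gene ELP3, 0.87 in GTF2E2 of the initiation factor TFIIE, 0.78 in the histone methyltransferase gene NSD3 and 0.71 in POLR3D of RNA polymerase III, followed by THAP1 at 0.52, the histone acetyltransferase gene KAT6A at 0.49 and INTS9 at 0.13. The lowest were -0.58 in EBF2, -0.53 in SOX7, -0.34 in EGR3, -0.32 in HR and -0.30 in GATA4. At an unadjusted p under 0.05, 7 were higher and 1 lower, where 73 and 4 of the 188 genes of the arm were, and 1176 and 830 of all 14232. INTS10 had 7.13, 7.43 and 6.99 in knockdown and 6.28, 6.36 and 5.43 in control arrays (adjusted p = 0.0816), with control replicate 3 well below the other controls. Of RNA factors, the exportin gene XPO7 had 1.19 (adjusted p = 0.0771), the RNA-binding gene RBPMS 0.72, the deadenylase gene CNOT7 0.69 and LSM1 of mRNA decapping 0.63, all without overlap, and none of the 6 measured genes of that list passed (4 higher and 1 lower at an unadjusted p under 0.05). The 4 without overlap were 66.7% of the list, against 38.3% of the arm and 8.81% of all genes.

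Enzymes of lipid synthesis and turnover split in the same way as the bright and dim genes. The bright members had positive values, 0.98 in the phospholipase gene DDHD2, 0.94 in AGPAT5 and 0.66 in GPAT4, which both acylate glycerol phosphate, and 0.48 in the phosphatase gene PLPP5, while STAR, which carries cholesterol into mitochondria, was dim and had -0.30. None of the 10 passed, with 5 higher and 0 lower at an unadjusted p under 0.05. By that count 73 of the 188 genes of the arm were higher and 4 lower, and of all 14232 genes 1176 and 830. Among transporters, SLC7A2 for cationic amino acids rose, with 4.51, 4.67 and 4.82 in knockdown and 3.78, 3.83 and 3.83 in control arrays (0.85 ± 0.16, adjusted p = 0.0472). The zinc and iron carrier gene SLC39A14 had 0.69 and did not pass.

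Secreted proteins, receptors and adhesion molecules were the largest group, 29 genes, of which 21 were under 4.5, and the group had a median of -0.03. PDGFRL, a secreted protein that resembles the ligand-binding part of the PDGF receptor, rose. It had 6.16, 6.07 and 6.39 in knockdown and 4.88, 5.27 and 5.31 in control arrays (1.05 ± 0.18, adjusted p = 0.0341). The secreted hormone gene STC1 was bright, with 9.18, 9.15 and 8.87 in knockdown and 8.59, 8.37 and 7.96 in control arrays, a log2 fold change of 0.76 that did not pass (adjusted p = 0.15). The Wnt receptor gene FZD3 had 0.75. CCDC25, a coiled-coil protein in none of the role lists, also rose, with 6.76, 6.75 and 6.93 in knockdown and 5.87, 6.07 and 5.92 in control arrays (0.86 ± 0.16, adjusted p = 0.0432). The defensins and other proteins of restricted tissues, 8 genes, did not pass in any case, also not at an unadjusted p under 0.05, and had a median of -0.14 with DEFA6 at -0.51.

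**Figure D4:**
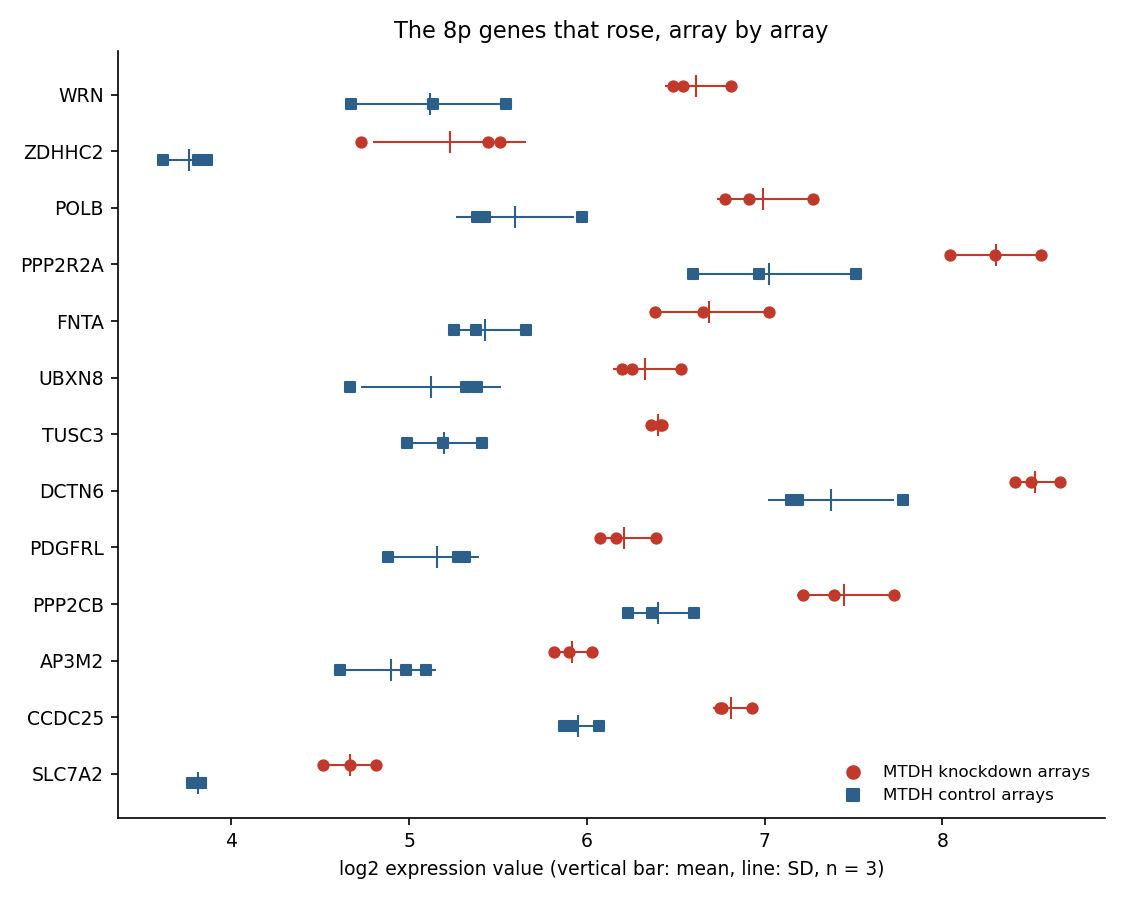
Log2 expression value (x axis) of the 13 8p genes that rose, in each of the 3 MTDH knockdown arrays (circles) and the 3 control arrays (squares), with means as vertical bars and SDs as lines. Knockdown and control arrays do not overlap in any of the 13, and the SD of the control arrays was the larger in 9 of them.

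The fall side of the arm held no gene that passed. Its lowest log2 fold changes were -0.63 in PNMA2, a neuronal antigen, -0.63 in CHRNA6, a nicotinic receptor subunit, -0.58 in EBF2, -0.55 in LINC00208, -0.53 in SOX7 and -0.51 in DEFA6. CHRNA6 had 2.65, 2.34 and 2.51 in knockdown and 3.30, 3.07 and 3.01 in control arrays, which did not overlap (adjusted p = 0.165). SOX7 had 4.58, 4.40 and 4.15 in knockdown and 4.70, 4.65 and 5.36 in control arrays (adjusted p = 0.321), where control replicate 3 was the highest. PNMA2 overlapped, with 2.55, 2.55 and 2.12 in knockdown and 2.51, 3.07 and 3.53 in control. Of these 6, SOX7 alone had a mean above 4.5.

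Genes of 8p were also set beside the partners and paralogs of their products that are encoded elsewhere. In 21 complexes or families both sides were measured, with 24 genes of 8p and 85 partners off chromosome 8. All 24 had positive log2 fold changes, in the main comparison and under each alternative tried, with a median of 0.85, and 7 rose. The 85 partners had a median of 0.09, 51 of them positive, and none passed, with 6 higher and 3 lower at an unadjusted p under 0.05. By that count 1176 of all 14232 genes were higher and 830 lower. The groups did not overlap, with knockdown higher, in 22 of the 24, or 91.7%, and in 8 of the 85, or 9.41%. Over the arm this share was 38.3%, and over all genes 8.81%. In all 21 the 8p genes lay above the median of their partners, and in 18 each of them lay above every partner. Among genes above 6 the medians were 1.00 in 11 genes of 8p and 0.17 in 43 partners. The 4 measured partners on 8q had log2 fold changes of 1.18 in INTS8, 0.75 in ATP6V1H, 0.35 in VPS28 and -0.07 in RECQL4.

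The partners and paralogs differed from the 8p gene by different amounts. In PP2A, PPP2R2A and PPP2CB stood at 1.27 and 1.04, while 8 other subunits, scaffold and regulatory, ran from -0.19 to 0.23. Among RecQ helicases WRN had 1.496, against -0.22 in BLM and -0.20 in RECQL5. VDAC3 had 0.78, against -0.28 in VDAC1 and -0.35 in VDAC2. In oligosaccharyltransferase, TUSC3 had 1.20, while its paralog MAGT1 had 0.02 and the largest of the 6 partners was STT3B at 0.58. FNTA at 1.26 stood above its farnesyltransferase partner FNTB at -0.08 but close to PGGT1B, its partner in geranylgeranylation, at 1.09 (adjusted p = 0.13). AP3M2 had 1.02 and its paralog AP3M1 -0.24. The exceptions to the order were the Integrator gene INTS9 at 0.13, with INTS12 the highest partner at 0.67, the ESCRT-III gene CHMP7 at 0.52, below CHMP2B at 0.71, and LSM1 at 0.63, below LSM2 at 0.67 and level with LSM6 at 0.63. Brightness was not matched in these contrasts. Mean values were 8.70 in VDAC3 against 4.64 in VDAC1 and 5.62 in VDAC2. They were 5.87 in WRN against 4.58 in BLM and 4.71 in RECQL5, and 6.06 in FNTA against 4.41 in FNTB. All 8 PP2A partners were dimmer than PPP2R2A and PPP2CB. By contrast, AP3M1 (7.27) was brighter than AP3M2 (5.41), and MAGT1 (6.06) than TUSC3 (5.80).

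**Figure D5:**
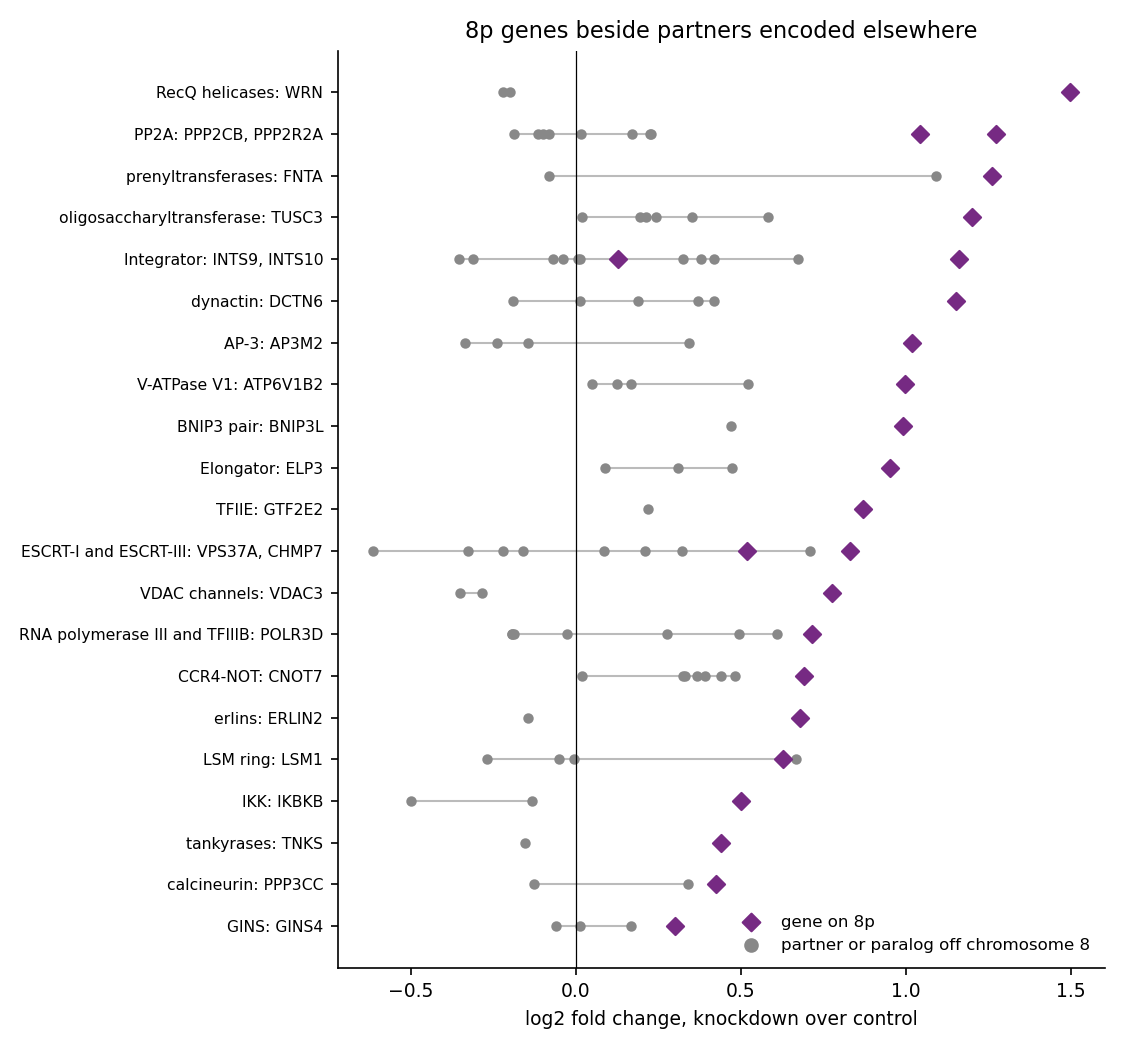
Log2 fold change of MTDH knockdown over control (x axis) for the 8p genes of 21 complexes and families (diamonds) and their measured partners or paralogs off chromosome 8 (circles), 1 complex per line. The diamonds run from 0.13 to 1.496 and the circles from -0.62 to 1.09, and in 18 lines each diamond lies right of every circle.

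Of 17 measured proposed tumour suppressors of the arm, 9 had positive and 8 negative values, the median was 0.05, and TUSC3 and PPP2R2A rose. PCM1 had 1.03, VPS37A 0.83, the microtubule-associated gene MTUS1 0.68, PINX1 0.47 and TNKS 0.44, none of which passed. In 7 of the 17, or 41.2%, every knockdown array lay above every control array, and in 3, or 17.6%, below, where the shares over all genes were 8.81% and 11.2%. The 3 were SOX7, GATA4 and DLC1, at -0.53, -0.30 and -0.32, none of which passed. DLC1 had 3.68, 3.72 and 3.64 in knockdown and 4.05, 3.81 and 4.13 in control arrays (adjusted p = 0.395). The Wnt inhibitor gene SFRP1 (-0.06), CSMD1 (-0.09) and BIN3 (-0.09) were dim and changed sign with the scaling.

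The 27 measured genes of the breast cancer amplicon near the centromere had a median of 0.62, with 21 positive, and AP3M2, POLB and FNTA rose. In 17 of them, or 63.0%, every knockdown array lay above every control array, against 38.3% of the arm and 8.81% of all genes. Of the 27, 14 were above 6, and among all genes above 6 the share without overlap, knockdown higher, was 18.6%. NSD3 was among the 17, with 7.17, 7.31 and 7.11 in knockdown and 6.56, 6.50 and 6.18 in control arrays (log2 fold change 0.78, adjusted p = 0.0828). The receptor kinase gene FGFR1 and the transcription factor gene ZNF703, for which the amplicon is best known, had -0.13 and -0.04, both of which turned positive under some alternatives. FGFR1 was dim, with 4.35, 4.04 and 4.56 in knockdown and 4.40, 4.30 and 4.64 in control arrays. ZNF703 was in the class from 4.5 to 6, with 5.98, 5.73 and 6.15 in knockdown and 5.80, 5.90 and 6.27 in control arrays, and the groups overlapped.

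Higher genes were found along the whole arm. When the 188 genes were divided in order into 8 blocks of 23 or 24, genes at 4.5 or above had median log2 fold changes, from the telomere to the centromere, of 0.45, 0.65, 0.37, 0.39, 0.86, 0.72, 0.62 and 0.71. The mean behind this cut includes the knockdown arrays. Over all genes of each block, in the same order, the medians were 0.01, 0.03, 0.04, -0.08, -0.06, 0.46, -0.01 and 0.50. The genes that rose fell in 4 of the blocks, with 4 in the second, 2 in the fifth, 4 in the sixth and 3 in the eighth. The longest run of neighbouring measured genes without overlap, knockdown above control, was 7, from the mitochondrial calcium uptake gene MICU3 through ZDHHC2, CNOT7, VPS37A, SLC7A2 and PDGFRL to MTUS1. Genes without overlap in this direction made up 38.3% of the arm, 37.7% of 8q and 8.81% of all genes. Runs on 8q were not counted, and whether the runs of 8p were longer than these shares give was not tested. The run of 7 was bounded by FGF20, a growth factor gene at -0.34, and FGL1 at 0.05, both dim, and FGL1 turned negative without control replicate 2 or knockdown replicate 3. Dim genes also lay within runs: MICU3, ZDHHC2 and SLC7A2 of this run were under 4.5, as were INTS9 and RNF170 of those below. Runs of 5 ran from FZD3 to KIF13B, from SARAF to GTF2E2 and from LSM1 to NSD3, each ended on both sides by a gene that overlapped, and runs of 4 from KAT6A to POLB and from RNF170 to POMK.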

How the data were processed

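Amplified, biotin-labelled cDNA of the 6 samples was read on Affymetrix arrays. The values deposited by the authors are on a log2 scale, with a column for each array, and come from Partek Genomics Suite per the labels and the methods. The software version and how background and arrays were adjusted is not given in the sources used here, and background that is left in compresses the fold changes of dim genes. No detection values were used, and precision is limited by the number of arrays. The methods name a gene array, while the row identifiers are transcript clusters of an exon array.

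Of 22011 rows, 14432 had 1 symbol, 2408 had several and 5171 had none in the annotation used here, and rows with several or none were not tested by name. The row with the highest mean was kept per gene, which gave 14232 genes. Of the 188 genes of 8p, 4 had more than 1 row, and ARHGEF10 differed in sign between its rows (0.44 kept, -0.10 left out). RefSeq annotation of GRCh38.p14 was used for arms and order only. Groups and replicate numbers came from the sample titles.

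Groups were compared with limma 3.58.1 in R 4.3.3 (a mean per group, empirical Bayes moderation, two-sided, Benjamini-Hochberg over all genes tested). The methods state no test. The fit was tested on simulated data. Genes named were those of the arm that passed, the 3 with the largest absolute change in each role list, the 6 lowest, members of the tumour suppressor, amplicon and partner lists, and genes at the ends of runs, and others in the text were added after their values were seen. The arm and all lists were chosen with earlier results of these data known. Alternatives were the mean of a gene's rows, all rows, dropping the dimmest 30% of genes, quantile normalization, centring, cyclic loess, an intensity trend, the replicate number as a block, a test against a fold of 1.5 (treat) and leaving out each array. Normalization within the 2 sides of the step, with and without control replicate 3, and brightness classes by the control mean were added after seeing the data.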

Additional observations from a re-analysis of the deposited data

Results flagged for a closer look

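Rows of the array that carry several gene symbols were outside the comparison, and 15 of them lay wholly on 8p. In 5 of these every knockdown array lay above every control array, and each is given for that signal in data not otherwise used. Among the 188 genes of 8p this was so in 38.3%, and among all genes tested in 8.81%. The log2 fold changes were 1.35 for the row of FBXO16 and ZNF395 (adjusted p = 0.0701, limma over all rows), 1.25 for a row of MAK16 and TTI2, 0.53 for a row of TTI2 and MAK16, 0.44 for ADAM3A and ADAM2 and 0.37 for NEIL2 and LINC02905. The first had 5.88, 5.96 and 5.78 in knockdown and 4.77, 4.61 and 4.19 in control arrays, while the other row of the same pair of genes had a log2 fold change of -0.07. In the row of ADRB3 and GOT1L1 every knockdown array lay below every control array, at -0.64. None of the 15 passed the test, and which gene of a row gave its signal was not tested.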

How the results depend on the processing

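No gene of 8p was called lower under any setting, and the number higher without overlap was 72 of 188 in the main comparison (8.81% of all genes), 69 of 124 without the 30% of genes lowest in mean (11.2%) and up to 80 of 188 without control replicate 2 (18.1%). The 13 genes of 8p that rose were 0 over all rows and in the test against a fold of 1.5, 6 after quantile normalization or centring and 0 to 32 when 1 array was left out. All genes changed, 85 in the main comparison, were 4 in the test against a fold of 1.5, 48 after centring and 12 to 233 with 1 array left out. In the fit over all rows 19 rows changed, and of the genes tested 5 were higher and 12 lower. The median of all 8p genes, 0.07, was 0.50 without the 30% of genes lowest in mean, 0.14 after quantile normalization, 0.17 after centring, 0.15 after cyclic loess, 0.16 within both sides of the step without control replicate 3 and 0.07 to 0.15 with 1 array left out. That of genes above 6, 0.87, was 0.72, 0.71 after cyclic loess, 0.60 and 0.53 within both sides of the step, 0.78 with classes by the control mean and 0.67 to 0.96. Same-numbered arrays did not pair throughout: their deviations correlated at -0.0977 for replicate 1, 0.465 for replicate 2 and 0.314 for replicate 3. With the replicate number as a block, 37 genes of 8p rose and 364 of all genes changed. Of 93 named genes 12 changed sign in some setting. In the order quantile, centred, cyclic loess, sides of the step and the same without control replicate 3, CSMD1 came to 0.01, 0.01, 0.04, 0.08 and 0.09, BIN3 to 0.00, 0.01, 0.05, 0.09 and 0.10 and SFRP1 to 0.05, 0.04, 0.08, 0.12 and 0.04. PNOC had 0.07, 0.06 and 0.11 in the first 3 and 0.16 in the last, GSR -0.05 and -0.03 under quantile and loess, ZNF703 0.06 when centred and RAB11FIP1 0.01 within sides. FGFR1 had 0.02, 0.07 and 0.06 and ADAM9 -0.02, -0.12 and -0.09 in the last 3, and HGSNAT -0.12 and -0.27 in the last 2. With 1 array left out, values ran from -0.17 to 0.02 in CSMD1, -0.18 to 0.23 in FGL1, -0.17 to 0.01 in BIN3, -0.37 to 0.18 in PNOC, -0.13 to 0.10 in ZNF703, -0.26 to 0.02 in LETM2, -0.25 to 0.01 in FGFR1, -0.20 to 0.09 in SFRP1 and -0.06 to 0.48 in HGSNAT. The causes were not tested.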
